A study of Mus musculus with 6 samples.

Results

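Regulators of G-protein signalling (RGS proteins) were examined through 10 *Rgs* genes, chosen by name from the 33460 Ensembl gene identifiers of the deposited files after matching the identifiers to symbols of the NCBIM37 mouse annotation. These were *Rgs5*, *Rgs4*, *Rgs3*, *Rgs16*, *Rgs2* and *Rgs1* of the R4 subfamily, *Rgs12*, *Rgs10* and *Rgs14* of the R12 subfamily, and *Rgs19* of the RZ subfamily. A value was found for all 10, and all 10 were among the 14801 genes tested. The question was how *Rgs5*, long used as a marker of pericytes, compares with its relatives in level and in the ratio between sorted mural cells and whole microvessels.

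RNA-seq was available for 6 libraries made from mouse brain at postnatal day 6. All animals were *Pdgfrb-eGFP/NG2-DsRed* transgenics and carried both reporters, an eGFP transgene of the GENSAT line Tg(Pdgfrb-eGFP)JN169Gsat/Mmucd driven by *Pdgfrb* sequences and a DsRed transgene driven by sequences of *Cspg4*, the gene of NG2. In the mural group, 3 libraries were made from cells sorted by FACS for both colours, and in the fragment group, 3 libraries were made from vessel pieces captured with anti-CD31 magnetic beads after collagenase treatment. According to the methods, the brains of 3 animals were split sagittally and each group received one side, but the labels do not tie a library number to an animal. The fragments hold endothelial and mural cells together, so a mural to fragment ratio is not a ratio of one pure cell type to another. The groups also differ in digestion and handling, which cannot be told apart from the cells they hold.

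An RGS protein binds the active, GTP-bound alpha subunit of a heterotrimeric G protein and speeds up its hydrolysis of GTP, which shortens the signal that a G-protein-coupled receptor sends to adenylyl cyclases and phospholipase C-beta. R4 proteins are small, with little beyond the RGS domain, and act on Gi, Gq or both. R12 proteins act on Gi, and *Rgs12* and *Rgs14* encode larger scaffolds with Ras-binding and GoLoco motifs. In vessels this brake sets how strongly contractile cells respond to vasoactive peptides and amines.

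The members differ in how their proteins begin, and this is visible in the first codons of the R4 genes. The first 30 coding bases, with the second codon in capitals, were read from the longest coding transcript of each gene in the GENCODE annotation of NCBIM37 and are shown because a cysteine at this place is the known entry to oxygen-dependent breakdown of the protein.
Rgs5: atgTGTaagggactggcagctctgccgcac
Rgs4: atgTGCaaaggacttgcaggtctgccggct
Rgs16: atgTGCcgcaccctagccaccttccccaac
Rgs3: atgAACcgcttcaatgggctctgcaaagtg
Rgs2: atgCAAagtgccatgttcctggctgtccag
Rgs1: atgAGAgcggcagccatctccatgccaagg
TGT and TGC encode cysteine, so *Rgs5*, *Rgs4* and *Rgs16* carry it as the second residue, and *Rgs3*, *Rgs2* and *Rgs1* do not in these transcripts. A cysteine second codon was found in 207 of 21463 genes with a complete coding sequence (0.964%). The coding sequences of *Rgs5* and *Rgs4*, of 546 and 618 bases, were identical at 63.4% of aligned bases, within the range of 55% to 70.1% over all pairs of the R4 genes. *Rgs3*, with a far longer coding sequence of 2901 bases, had the highest identity with every other R4 gene, at 65.5% to 70.1%. Gaps can spread a short sequence over a longer one, so these values do not rank *Rgs3* as the closest relative of *Rgs5*. Among the pairs without *Rgs3*, the 63.4% of *Rgs5* and *Rgs4* was the highest.

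*Rgs5* and *Rgs4* lie side by side on chromosome 1 of NCBIM37, with *Rgs5* at 171585632 to 171625944 on the plus strand and *Rgs4* at 171671608 to 171677773 on the minus strand. Their 3′ ends face each other across 45.7 kb, with no annotated *Rgs* gene between them. The 250 bases upstream of each start, taken from RefSeq for GRCm38.p6 and written 5′ to 3′ on the strand of the gene, are shown because these neighbours were the members higher in mural cells. Capitals mark the letters TATAAA.
Rgs5, chr1:169655251-169655500, plus strand: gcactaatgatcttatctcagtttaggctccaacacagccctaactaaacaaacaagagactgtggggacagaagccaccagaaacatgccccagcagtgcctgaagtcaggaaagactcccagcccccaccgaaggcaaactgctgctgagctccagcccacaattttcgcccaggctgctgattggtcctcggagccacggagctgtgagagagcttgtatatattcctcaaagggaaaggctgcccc
Rgs4, chr1:169747643-169747892, minus strand: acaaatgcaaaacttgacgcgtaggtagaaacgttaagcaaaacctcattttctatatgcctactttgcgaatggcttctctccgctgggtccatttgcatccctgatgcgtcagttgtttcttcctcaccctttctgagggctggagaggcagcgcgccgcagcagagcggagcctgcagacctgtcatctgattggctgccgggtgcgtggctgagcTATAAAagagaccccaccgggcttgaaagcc
On both strands, the CArG box, which serum response factor binds in smooth muscle genes, was searched for, as were TGGGAA, the core bound by the Notch partner RBPJ, and TATAAA, the last of these added after the sequences had been looked at. A CArG box can hold TATAAA within it. A CArG box was in 0 of the 12 promoter entries of the 8 members with an entry and in 1.47% of 32851 mouse promoters. TGGGAA was in 2 of the 12 entries, 1 of *Rgs3* and 1 of *Rgs19*, and in 21.6% of all promoters. TATAAA was in 3 of the 12 entries, 2 of *Rgs3* and the one of *Rgs4*, where its first base is at position -31 from the start, and in 12.4% of all promoters. Only these exact letters were counted. The sequence of *Rgs5* above holds the like letters TATATAT at about the same distance from its start, so the count does not set these neighbours apart. A match is a description of letters and not a site of binding.

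The deposited unit is FPKM, fragments per kilobase of transcript scaled to the number of mapped fragments, so that genes can be compared per length. For genes with a single transcript 97.6% to 98.6% of low values were whole multiples of 1 fragment, within 0.05 of a fragment, and the libraries were estimated to hold 5.41 to 5.94 M fragments on protein-coding genes in the fragment group and 1.03 to 2.36 M in the mural group. All 11 pericyte markers and all 6 smooth muscle markers of the lists used here were higher in the mural libraries. They include *Pdgfrb* and *Cspg4*, whose promoter sequences drive the sort, and *Vtn*, which the paper picked as a marker from these same data. Endothelial markers stayed at a median of 67.4% of their fragment level, with 2 of 12 lower, and summed to an FPKM of 1539 to 2017 in the mural libraries and 2106 to 2449 in the fragments. All 10 microglia and macrophage markers were lower, at a median of 7.84%, and 13 of 14 immediate early genes were lower, at a median of 12.1%. Of these genes *Cnn1*, *Lmod1*, *Aif1*, *Tyrobp* and *Egr2* passed the filter on low values through the group where they are high alone. Astrocyte markers summed to an FPKM of 845 in mural 3, against 260 and 230 in mural 1 and 2.

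Of the 10 members, 2 were higher in the mural libraries (*Rgs5* and *Rgs4*), 4 were lower (*Rgs2*, *Rgs1*, *Rgs10* and *Rgs14*) and 4 were not called (*Rgs3*, *Rgs16*, *Rgs12* and *Rgs19*). A gene was called at an adjusted p under 0.05 from limma on log2(FPKM + 1), with Benjamini-Hochberg adjustment over all genes tested, together with a ratio of mean FPKM above 2 or under 0.5. By the same thresholds 6.43% of all genes tested were higher (952 genes) and 10.1% lower (1493 genes), and with quantile normalization the split was 1185 higher to 1105 lower. *Rgs1* and *Rgs14* passed the filter on low values through the fragment libraries alone, so the filter favoured a lower value in the mural libraries. Groups that did not overlap, in either direction, were found for 40.9% of all genes tested. The median log2 fold change of all genes was -0.12, or 0.00 with quantile normalization. In bulk samples, fewer cells of a type and less RNA per cell cannot be told apart, and the p-values measure the spread between these libraries.

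**Figure D1:**
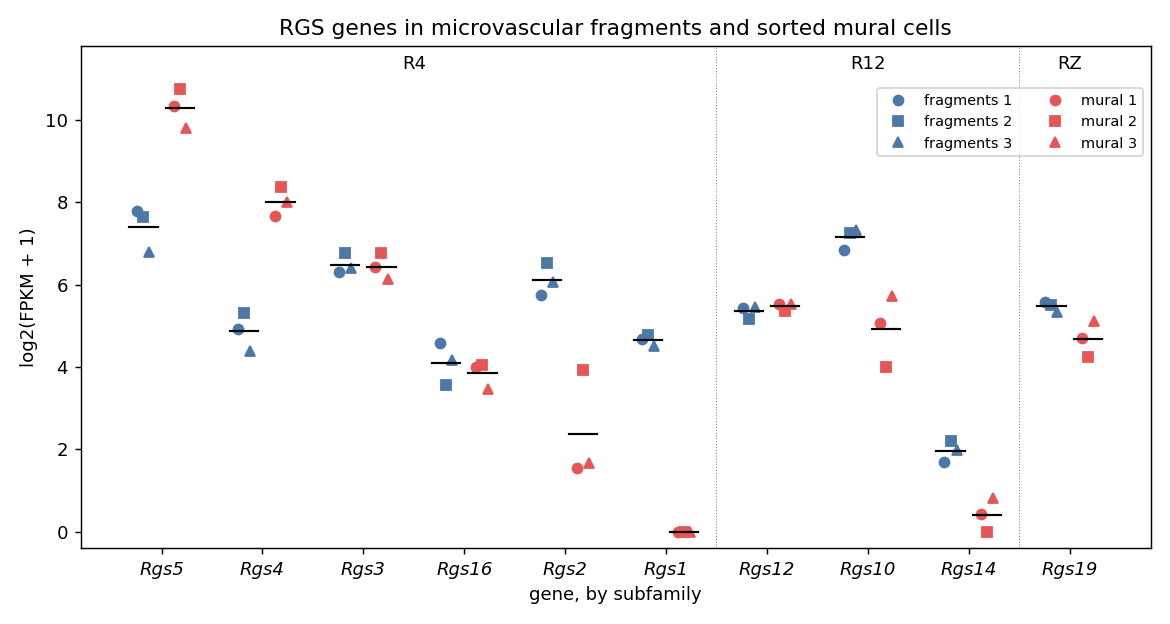
Level of each member as log2(FPKM + 1) on the vertical axis, with 1 point per library (circle, square and triangle for libraries 1, 2 and 3, blue for fragments and red for mural) and a bar at the mean of 3. *Rgs5* and *Rgs4* lie higher in all 3 mural libraries, *Rgs3*, *Rgs16* and *Rgs12* overlap between the groups, and *Rgs1* is listed at 0 in all 3 mural libraries.

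*Rgs5*, an R4 member known from pericytes and arterial smooth muscle, where it restrains Gq and Gi signalling, was the most abundant of the 10 genes in the mural libraries. Its FPKM was 219, 200.2 and 110.0 in fragments 1, 2 and 3 and 1298, 1716 and 893 in mural 1, 2 and 3. The lowest mural value was several times the highest fragment value, and library 3 was the lowest of its group in both groups. The means were 176 ± 58.4 and 1302 ± 411 (SD, n = 3 each), a ratio of 7.38. The log2 fold change was 2.89 (SE 0.32, 95% interval 2.13 to 3.64), with an adjusted p of 9.2e-04 from limma. Quantile normalization, which gave mural 2 a value of 11682.5 in place of 1716, raised the log2 fold change to 4.06. *Rgs5* ranked 10th of 14801 genes by mean FPKM in the mural libraries and 264th in the fragments.

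*Rgs4*, the neighbour of *Rgs5*, encodes a Gi and Gq regulator studied mostly in neurons and heart. Its FPKM was 29.3, 39.1 and 20.0 in the fragments and 202, 328 and 257 in the mural libraries. All mural values lay above all fragment values. The means were 29.5 ± 9.55 and 262 ± 63.1, a ratio of 8.90, and the log2 fold change was 3.13 (SE 0.27, 95% interval 2.51 to 3.76; limma adjusted p = 3.1e-04). By rank *Rgs4* was 147th in the mural libraries and 3702nd in the fragments. Neuron markers summed to 14.9 to 28.1 in the mural libraries, under the 28.8 to 37.7 of the fragments, and the part of neurons in the result was not tested.

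Within 200 kb of *Rgs5* or *Rgs4* the annotation holds 6 genes, of which 5 were tested, and the calls fell on *Rgs5* and *Rgs4*. The others tested were *Nuf2*, a kinetochore gene, at a ratio of 0.772 (limma adjusted p = 0.37), *1700084C01Rik* at 1.34 (adjusted p = 0.73) and the noncoding *Gm15852* at 1.97 (adjusted p = 0.77).

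*Rgs3*, the R4 member with long isoforms beyond the RGS domain, came after *Rgs5* and *Rgs4* in the mural libraries. Its FPKM was 77.8, 108 and 83.7 in the fragments and 84.7, 107 and 69.5 in the mural libraries. The groups overlapped over most of their range. The means were 89.9 ± 16.0 and 87.2 ± 19.1, with a log2 fold change of -0.05 (95% interval -0.51 to 0.40; limma adjusted p = 0.88). The sign turned when fragments 2 was left out (0.09) or mural 3 was left out (0.10). *Rgs3* overlaps an antisense transcript, *Gm11209*, and whether strand was used in counting is not given in the sources used here.

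*Rgs16*, which shares the cysteine start with *Rgs5* and *Rgs4*, was not called. Its FPKM was 23.0, 10.8 and 17.1 in the fragments and 15.03, 15.7 and 10.1 in the mural libraries. The groups overlapped, and the mural values stood on an estimated 57, 25 and 17 fragments. The means were 17.0 ± 6.09 and 13.6 ± 3.07, and the log2 fold change was -0.26 (SE 0.30, 95% interval -0.97 to 0.44; limma adjusted p = 0.58).

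*Rgs2*, a regulator with a preference for Gq that lowers the response to vasoconstrictors and is quickly induced by many stimuli, fell 11.5-fold. Its FPKM was 52.5, 91.2 and 66.1 in the fragments and 1.93, 14.1 and 2.19 in the mural libraries. The groups did not overlap, but mural 2 stood well above the other mural libraries. The mural values stood on an estimated 10, 30 and 5 fragments in mural 1, 2 and 3. The means were 69.9 ± 19.7 and 6.09 ± 6.98, and the log2 fold change was -3.73 (SE 0.61, 95% interval -5.16 to -2.30; limma adjusted p = 0.0048), or -4.50 without mural 2. In mural 2 the summed microglia and macrophage markers were the lowest of the 3 mural libraries (154, against 225 and 180), and the immediate early genes lay between the others (299, against 335 and 259). In the fragments these sums were 2150 to 2585 and 2600 to 3192. Both lists moved with *Rgs2* between the groups, and their part in its difference was not tested.

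*Rgs1*, an R4 member best known from B cells and other leukocytes, was listed at 0 in all 3 mural libraries. In the fragments its FPKM was 24.7, 26.3 and 21.8, on an estimated 293, 288 and 263 fragments. At the depth of mural 1, 2 and 3, an FPKM of 0.652, 1.55 and 1.47 would correspond to 3 fragments, the limit that a count of 0 allows for counting error. The limma adjusted p was 8.1e-05, and no fold is given. The summed FPKM of the microglia and macrophage markers was 2150 to 2585 in the fragments and 154 to 225 in the mural libraries. Of these markers *Aif1* and *Tyrobp* were listed at 0 in mural 2, and the others were above 0 in all 3 mural libraries. The 6 lymphocyte markers summed to 10.4 to 12.03 in the fragments and 1.01 to 2.70 in the mural libraries. The part of either list in the result was not tested.

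*Rgs2* and *Rgs1* also lie on chromosome 1, at 145846468 to 145851291 and 146091102 to 146096372, both on the minus strand. The stretch from 200 kb before the first to 200 kb after the second holds 4 genes. Of the 3 tested, *Rgs2* and *Rgs1* were lower, and *Uchl5*, a deubiquitinase gene, had a ratio of 0.621 (limma adjusted p = 0.10). *Rgs13*, between them, was under the filter, with a mean FPKM of 0.110 in the fragments and 0 in the mural libraries.

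*Rgs12*, an R12 scaffold, was at like levels in all 6 libraries. Its FPKM was 42.1, 34.9 and 43.1 in the fragments and 45.4, 40.1 and 45.2 in the mural libraries. The groups overlapped, with means of 40.0 ± 4.49 and 43.6 ± 2.99 and a log2 fold change of 0.12 (95% interval -0.19 to 0.44; limma adjusted p = 0.56). A doubling or halving lies outside this interval.

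*Rgs10*, a small Gi regulator known for its high level in microglia, was second to *Rgs5* in the fragments and fell in the mural libraries. Its FPKM was 114, 153 and 160.9 in the fragments and 32.4, 15.1 and 51.5 in the mural libraries. The groups did not overlap, and mural 3 was the highest and mural 2 the lowest of the sorted libraries, on an estimated 39, 8 and 28 fragments in mural 1, 2 and 3. The means were 143 ± 25.4 and 33.0 ± 18.2, a ratio of 0.231, with a log2 fold change of -2.22 (SE 0.40, 95% interval -3.16 to -1.29; limma adjusted p = 0.0072). The ratio of *Rgs10* was above the median of the microglia and macrophage markers, which stood at 7.84% of their fragment level, and the part of these cells in its fall was not tested. *Rgs10* overlaps *Gm15503* on the same strand.

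*Rgs14*, a scaffold gene known from hippocampal neurons and leukocytes, was low in both groups. Its FPKM was 2.26, 3.58 and 2.99 in the fragments and 0.343, 0 and 0.771 in the mural libraries. The mural values correspond to an estimated 1, 0 and 1 fragment, so the size of the difference is not known at this depth. The limma adjusted p was 0.014, and it rose to 0.065 with quantile normalization, 0.054 without fragments 2 and 0.057 without fragments 3.

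*Rgs19*, also called GAIP, a Gi regulator of the RZ subfamily with a cysteine string, had an FPKM of 46.6, 44.8 and 39.1 in the fragments and 24.9, 17.9 and 33.6 in the mural libraries. The groups did not overlap, as was also so for 40.9% of all genes tested. The means were 43.5 ± 3.91 and 25.5 ± 7.89, a ratio of 0.585, and the log2 fold change was -0.79 (SE 0.23, 95% interval -1.32 to -0.26; limma adjusted p = 0.044), so *Rgs19* passed the test but not the 2-fold limit. An adjusted p under 0.05 was reached by 22.4% of all genes tested. Without mural 3 *Rgs19* was called lower, with a ratio of 0.492 and an adjusted p of 0.012. Over all alternatives its limma adjusted p ran from 0.012 to 0.15 and was above 0.05 in most. The others under 0.05 were a filter at an FPKM of 5 (0.040), quantile normalization (0.042) and leaving out genes at 0 in a whole group (0.046).

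**Figure D2:**
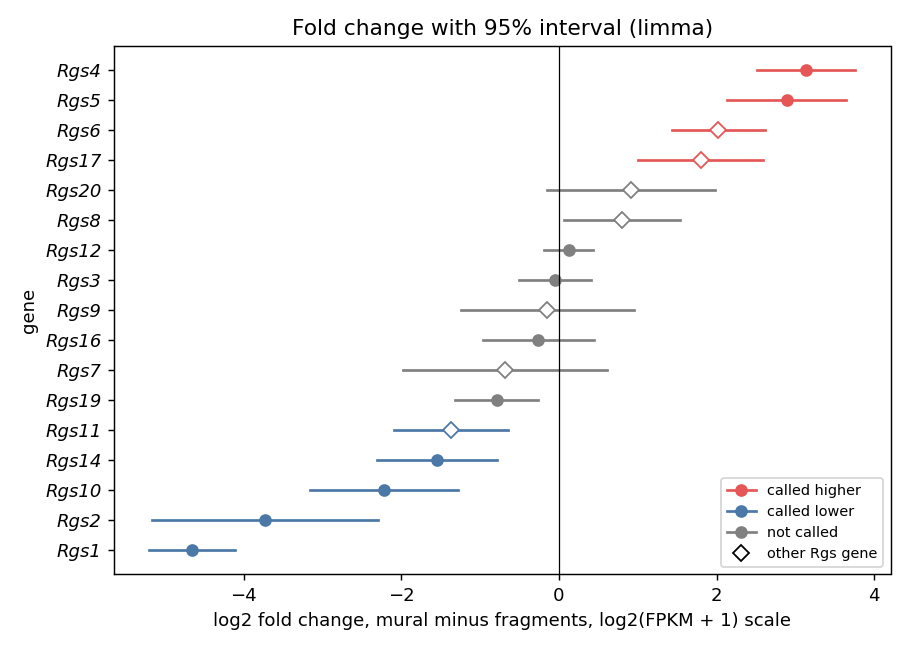
Log2 fold change (mural minus fragments, on the log2(FPKM + 1) scale) with its 95% interval from limma, filled circles for the 10 members and open diamonds for the 7 other *Rgs* genes tested, red for called higher, blue for called lower and grey for not called. *Rgs4* (3.13) and *Rgs5* (2.89) stand at the top, and the intervals of *Rgs12* and *Rgs3* lie across 0.

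By level, the order of the 10 genes differed between the groups. In the mural libraries *Rgs5* stood 4.97-fold above *Rgs4*, *Rgs4* 3.01-fold above *Rgs3* and *Rgs3* 2.00-fold above *Rgs12*, and each of these steps held in all 3 libraries without overlap. *Rgs12* and *Rgs10*, and *Rgs10* and *Rgs19*, overlapped in range, then followed *Rgs16*, *Rgs2*, *Rgs14* and *Rgs1*, with overlap between *Rgs16* and *Rgs2* and between *Rgs14* and *Rgs1*. In the fragments *Rgs5* was on average 1.24-fold above *Rgs10*, but the ranges overlapped and *Rgs10* was the higher of the pair in fragments 3 (160.9 against 110.0). Below them came *Rgs3*, *Rgs2*, *Rgs19*, *Rgs12*, *Rgs4*, *Rgs1*, *Rgs16* and *Rgs14*, and of these neighbours *Rgs2* and *Rgs19*, and *Rgs16* and *Rgs14*, did not overlap.

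The summed FPKM of the 10 genes was 631, 712 and 565 in the fragments and 1705, 2254 and 1362 in the mural libraries. *Rgs5* made up 34.7%, 28.1% and 19.5% of this sum in the fragments and 76.1%, 76.1% and 65.5% in the mural libraries. *Rgs4* made up 4.65%, 5.49% and 3.54% in the fragments and 11.9%, 14.5% and 18.8% in the mural libraries. Without these neighbours the sum was 383, 473 and 435 in the fragments and 205, 210.3 and 213 in the mural libraries. The genes taken out were the members called higher, and those left were called lower or not called. The lower sum therefore follows from the calls and is no separate result. Over all 20 *Rgs* genes with a value, *Rgs5* held 26.6% ± 7.49 of the summed FPKM in the fragments and 70.7% ± 6.99 in the mural libraries (SD, n = 3).

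**Figure D3:**
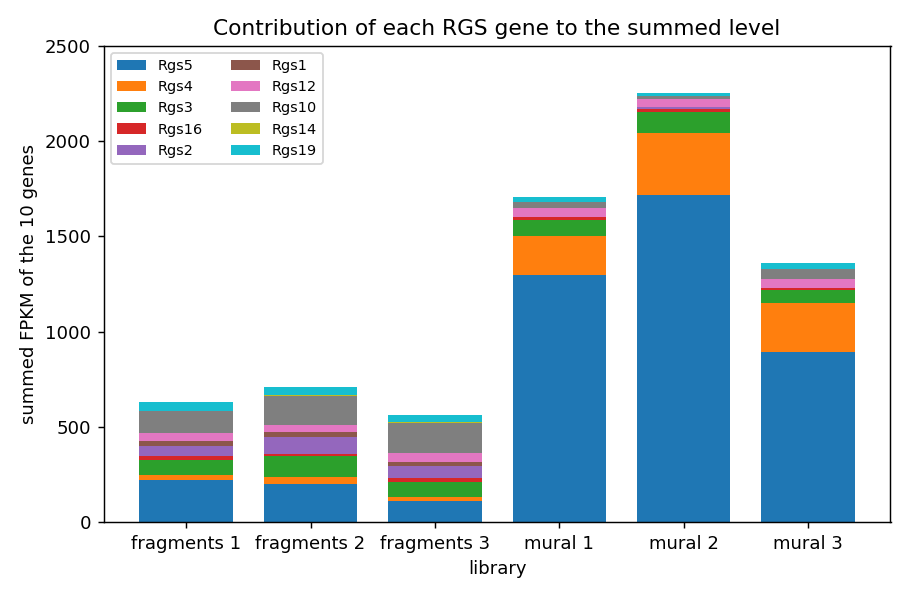
Stacked FPKM of the 10 members in each of the 6 libraries, with 1 colour per gene and the vertical axis starting at 0. *Rgs5* fills 65.5% to 76.1% of the bar in the mural libraries and 19.5% to 34.7% in the fragments.

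To compare *Rgs5* with each relative, log2(*Rgs5* FPKM + 1) minus log2(relative FPKM + 1) was taken within each library, and the 3 mural values were set against the 3 fragment values by a two-sided exact permutation test over the 9 relatives. With 3 against 3 the smallest p is 0.1, so no difference could pass 0.05. *Rgs5* was 7.47, 5.12 and 5.51 times *Rgs4* in the fragments and 6.42, 5.23 and 3.48 times *Rgs4* in the mural libraries. These ranges overlapped, and the difference of the log2 ratios was -0.25 (exact permutation p = 0.5). Leaving out 1 library at a time gave -0.44 to 0.00, and quantile normalization turned the sign (0.88).

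For the other 8 relatives the mural and fragment values did not overlap, and each had the smallest p of 0.1 by the exact permutation test (0.11 after Benjamini-Hochberg adjustment over the 9 pairs). The same lack of overlap was found for 96.4% of the 14800 other genes tested when set against *Rgs5* in this way, so it is no result about these relatives. *Rgs5* was 2.82, 1.85 and 1.31 times *Rgs3* in the fragments and 15.3, 16.0 and 12.8 times *Rgs3* in the mural libraries, a log2 difference of 2.94. Against *Rgs12* the log2 difference was 2.76, against *Rgs16* 3.15 and against *Rgs19* 3.68. It was 5.11 against *Rgs10*, which changed from about equal to *Rgs5* in the fragments (1.93, 1.31 and 0.683 times) to far under it (40.1, 114 and 17.3 times). Against *Rgs2* it was 6.62, with *Rgs5* 4.18, 2.195 and 1.66 times *Rgs2* in the fragments and 673, 121 and 409 times in the mural libraries. These mural folds rest on an estimated 10, 30 and 5 fragments of *Rgs2*. For *Rgs1* and *Rgs14*, with 0 in mural libraries, the differences of 7.54 and 4.44 depend on the pseudocount.

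**Figure D4:**
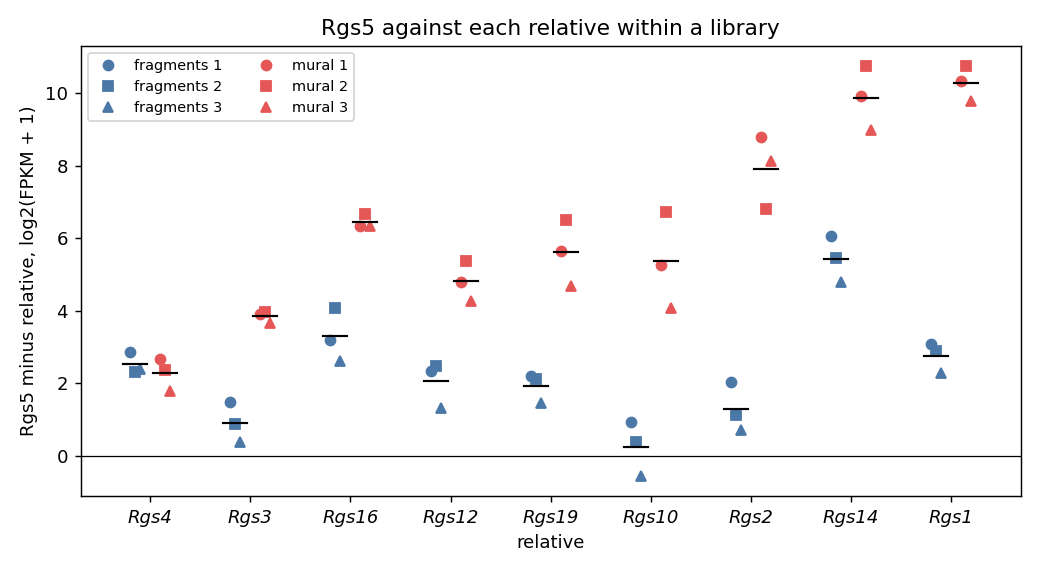
Difference of log2(FPKM + 1) between *Rgs5* and each relative within a library, with 1 point per library (shape for the library number, blue for fragments, red for mural) and a bar at the mean of 3. The groups overlap for *Rgs4* and lie apart for the other 8 relatives, as they did for 96.4% of all other genes tested, and in fragments 3 the point of *Rgs10* lies under 0.

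The genes most like *Rgs5* over the 6 libraries were sought among 8508 genes with a mean FPKM of at least 10, by Pearson's r of log2(FPKM + 1), as a description. The 6 points fall into the 2 groups, so r mostly carries the difference between them. *Prkcsh*, which encodes a subunit of glucosidase II, came first (0.999), then *Cobll1* (0.999), *Col4a1*, a chain of basement membrane collagen IV (0.998), *Tspan17*, a tetraspanin gene (0.998), and *Nr1h3*, which encodes the liver X receptor alpha (0.997). Their ratios were 1.51, 2.19, 3.92, 3.99 and 6.79, all under that of *Rgs5*, and each shared with it the lowest value of both groups in library 3. *Rgs4* was 175th, with an r of 0.979.

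The partners and relatives of the members were followed in 8 lists of 85 genes, of which 71 were tested, 7 were higher (9.86%), 6 lower (8.45%) and 58 not called, against 6.43% and 10.1% of all genes tested. These calls include *Rgs17*, *Rgs11* and *Gna15*, which passed the filter through 1 group alone. Without fragments 3 the lower calls fell to 3.

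Of the 11 other *Rgs* genes listed, 7 were tested, 2 were higher and 1 lower. *Rgs6*, of the R7 subfamily that pairs with the G-beta-5 subunit, had an FPKM of 3.18, 5.53 and 3.03 in the fragments and 16.7, 19.6 and 19.1 in the mural libraries, a ratio of 4.72 (limma adjusted p = 0.0015). *Rgs17*, an RZ relative of *Rgs19*, had 0.980, 2.48 and 1.96 in the fragments and 6.25, 8.23 and 11.81 in the mural libraries, a ratio of 4.85 (adjusted p = 0.0087). Both were higher in every mural library than in any fragment library, at levels far below *Rgs5*. Such a lack of overlap, in either direction, was found for 40.9% of all genes tested. *Rgs11*, also of the R7 subfamily, was lower (limma adjusted p = 0.018), but on an estimated 1, 0 and 1 fragment in the mural libraries. *Rgs11* passed the filter on low values through the fragments alone and *Rgs17* through the mural libraries alone, so these calls are no support for a direction of the list. *Rgs20*, *Rgs8*, *Rgs9* and *Rgs7* were not called, with ratios of 2.34, 2.13, 1.05 and 0.653. For *Rgs20*, *Rgs9* and *Rgs7* the highest mural value was in mural 3, at 14.8, 9.39 and 3.56. Their values in mural 1 and 2 were at most 5.89, 3.12 and 0.501. Of the anchors of R7 proteins, *Rgs7bp*, which ties them to the membrane, was higher, with 5.53, 6.73 and 6.49 in the fragments and 14.01, 17.9 and 17.1 in the mural libraries, a ratio of 2.62 (limma adjusted p = 0.0039). *Gnb5* had a ratio of 1.74 and was not called (adjusted p = 0.26).

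Among 14 other genes whose proteins hold an RGS domain, 1 was higher and 13 were not called. *Axin2*, a scaffold of beta-catenin breakdown and a Wnt target, had a ratio of 2.33 (limma adjusted p = 0.0019). *Adrbk1*, the G-protein-coupled receptor kinase 2 gene, passed the test at a ratio of 0.591 (adjusted p = 0.010), and *Grk6* at 1.36 (adjusted p = 0.046), both within 2-fold.

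The G-alpha genes on which RGS proteins act had 1 of 12 tested lower and 11 not called. The Gi subunit gene *Gnai2* was at 373, 369 and 369 in the fragments and 408, 358 and 359 in the mural libraries, and the Gs subunit gene *Gnas* at 300.2, 263 and 282 in the fragments and 330.2, 368 and 332 in the mural libraries. These were the highest G-alpha levels in both groups. *Gnaq* had 42.6, 40.6 and 46.7 in the fragments and 36.9, 20.5 and 25.9 in the mural libraries (limma adjusted p = 0.065). *Gna15*, a Gq-class subunit of blood cells, was lower, at 27.4, 28.3 and 37.2 against 1.28, 0 and 1.503 (adjusted p = 4.3e-04), but it passed the filter on low values through the fragments alone. The microglia and macrophage markers fell with it, and their part in the result was not tested.

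Of 12 G-beta and G-gamma genes tested, *Gnb4* was higher (ratio 2.37, limma adjusted p = 3.5e-04) and *Gng10* lower (ratio 0.346, adjusted p = 0.013, on an estimated 7, 3 and 6 fragments in the mural libraries). *Gng11* and *Gng2* passed the test at ratios of 1.91 and 1.90, short of 2-fold. *Gnb4* had little spread within the groups, with 36.9, 37.3 and 37.8 in the fragments and 82.6, 93.8 and 89.0 in the mural libraries.

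Effector genes moved in both directions, with 2 higher, 3 lower and 7 not called of 12 tested. *Adcy5* and *Adcy6*, adenylyl cyclases that Gi inhibits, were higher. *Adcy5* had 2.34, 4.02 and 3.35 in the fragments and 9.27, 22.5 and 19.3 in the mural libraries (ratio 5.26, limma adjusted p = 0.0068), and *Adcy6* had 18.6, 19.4 and 16.6 in the fragments and 56.3, 70.9 and 54.7 in the mural libraries (ratio 3.33, adjusted p = 3.7e-04). *Adcy7*, a cyclase abundant in blood cells, was lower (ratio 0.101, adjusted p = 2.6e-04), as were the phospholipase C-beta genes *Plcb2* (ratio 0.118, adjusted p = 0.0018) and *Plcb1* (ratio 0.447, adjusted p = 0.035).

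Of the other modulators of G proteins, 0 of 6 were called by limma, with 2 at an unadjusted p under 0.05, a level reached by 35% of all genes tested. Of 6 genes of the pathway that breaks down proteins with an N-terminal cysteine, which acts on the RGS proteins with this start, 0 were called, with 1 at an unadjusted p under 0.05. That gene, *Ate1*, which encodes the arginyltransferase, passed the adjusted test but not the 2-fold limit, with 21.4, 19.9 and 16.8 in the fragments and 26.9, 34.0 and 39.3 in the mural libraries, a ratio of 1.72 (limma adjusted p = 0.025). *Ado*, the dioxygenase that oxidises the cysteine, had 7.69, 8.53 and 9.57 in the fragments and 9.42, 13.9 and 12.3 in the mural libraries (adjusted p = 0.22). RNA levels do not give the amount of the RGS proteins, which were not measured here.

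**Figure D5:**
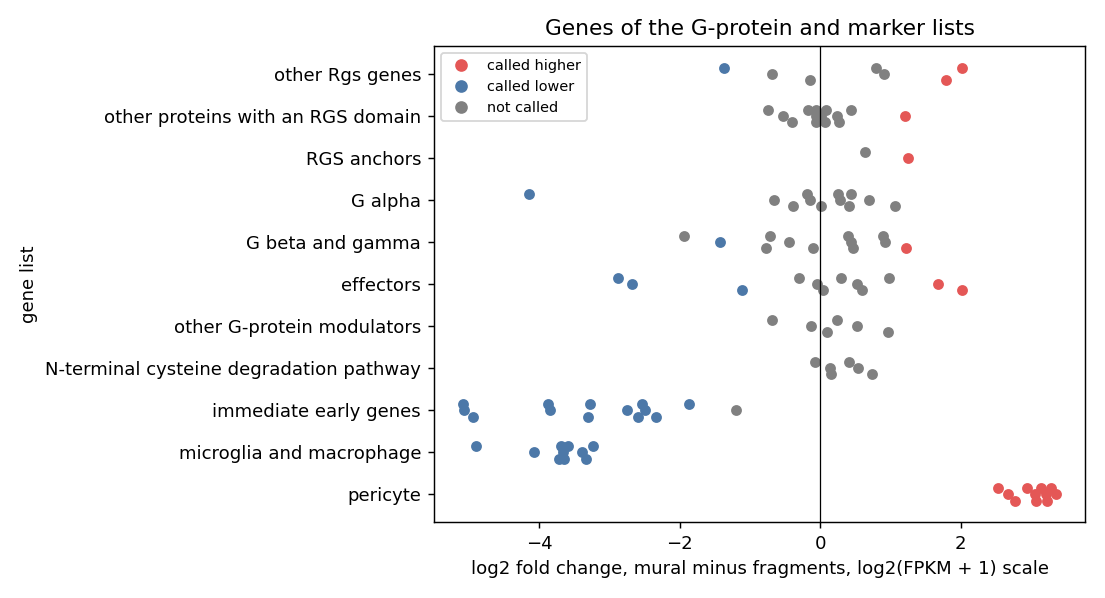
Log2 fold change (mural minus fragments, log2(FPKM + 1) scale) of each gene tested in the 8 G-protein lists and in the immediate early, microglia and macrophage, and pericyte lists, with 1 point per gene, red for called higher, blue for called lower and grey for not called. Of the 71 genes tested in these 8 lists, which include the N-terminal cysteine degradation pathway, 58 are grey. All 10 microglia and macrophage genes are blue and all 11 pericyte genes are red.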

How the data were processed

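The deposited files hold, per library, an FPKM value for each Ensembl gene. Per the labels and methods, the authors aligned paired reads to NCBIM37 with TopHat2 2.0.4, removed duplicates with Picard 1.92 and ran Cufflinks 2.2.1. Replicates were not pooled, and the scaling applied by Cufflinks and the use of strand are not given in the sources used here.

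Of 33484 lines per file, 24 repeated another and were dropped. Symbols and positions came from the GENCODE annotation of NCBIM37. Genes that reached an FPKM of 1 in 3 or more libraries were fitted as log2(FPKM + 1), without a block, with limma 3.58.1 (R 4.3.3, intensity trend). This scale understates changes of low genes. Fragments behind a value were estimated from the value of 1 fragment in each library and the longest transcript, and cover counting error only. The fit was also run on simulated fragments with the same spread setting for every gene, which does not check the calls made here. Other steps used Python 3.11.15, pandas 2.3.3, NumPy 2.4.6 and SciPy 1.17.1.

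The alternatives were a pseudocount of 0.1, a filter at 5 FPKM or none, median-ratio scaling, quantile normalization, no intensity trend, the replicate number as a block and leaving out each library. Leaving out genes at 0 in a whole group was added after seeing the data. The genes named are the 10 members, the called genes of the lists with at most 4 others of each, and the 5 genes most like *Rgs5*. Neighbours were named by distance, and markers for their sums. Members and lists were chosen with earlier results of these data known. No comparison columns were used.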

Additional observations from a re-analysis of the deposited data

How the results depend on the processing

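Over 14 alternatives, 2 members stayed higher in each and 3 to 5 were lower. The calls of *Rgs5*, *Rgs4*, *Rgs2*, *Rgs10* and, where it could be fitted, *Rgs1* did not change. *Rgs14* lost its call in 3 alternatives and *Rgs19* gained one without mural 3. The sign of *Rgs3* turned without fragments 2 (0.09) and without mural 3 (0.10), within a range of -0.21 to 0.10 when 1 library was left out, and that of *Rgs5* against *Rgs4* with quantile normalization (0.88). Leaving out 1 library gave 711 to 1002 higher and 988 to 1751 lower genes, 7 to 10 higher and 3 to 7 lower genes of the G-protein lists, 988 and 3 being without fragments 3. A filter at an FPKM of 5 left 948 lower genes. The causes were not tested, beyond the smaller number of genes (10968) under that filter.

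The labels do not tie library numbers to animals. Residuals of same-numbered libraries correlated at 0.020 to 0.082 and those of others at -0.061 to 0.010, and each of the 3 mural libraries correlated best with its own number, a hint from the data only. With the replicate number as a block, 900 genes were higher and 1344 lower, and 2 members were higher and 4 lower as before.

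The mural libraries hold fewer fragments, which limits *Rgs1*, *Rgs14* and *Rgs11* most. Groups of 3 libraries were too small to test single libraries as outliers.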
